A study of Homo sapiens with 8 samples.

Results

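MT-2 cells treated with EPZ-6438 alone were set against untreated MT-2 cells, with 1 array on each side. The comparison covers 17709 of the 21448 transcript probe sets of the array, those with exactly 1 gene symbol, and takes the EPZ-6438 array minus the untreated array on the log2 scale, so that 1 unit is a doubling of the signal. MT-2 cells are cultured human T cells that carry HTLV-1, a retrovirus that can cause adult T cell leukaemia. EPZ-6438 (tazemetostat) inhibits EZH2, and OR21, the other agent of the study, is described as a DNA demethylating agent. The EPZ-6438 cells received 500 nM of the inhibitor, the combination cells 100 nM OR21 with 500 nM EPZ-6438, the OR21 cells 100 nM OR21, and the untreated cells neither compound. Exposure lasted 96 h, with compound given at seeding and once more at 48 h, and all MT-2 cells were grown in the same serum-containing medium. The other line of the study, MT-1, was left untreated or received 2500 nM EPZ-6438, 500 nM OR21 or both at these doses. Each group of the 8 is 1 array of 1 cell line, so no value here has a replicate error and no test was possible. The precision of every difference is limited by this number of arrays.

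EZH2 is the catalytic subunit of Polycomb repressive complex 2 (PRC2), which places methyl groups on lysine 27 of histone H3 around gene promoters, often CpG-rich ones. Genes that carry the mark are held silent or low, and an inhibitor lets the mark be diluted as cells divide. In HTLV-1 infected and adult T cell leukaemia cells, PRC2 and its mark have been described as abnormally active at many genes.

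The promoters of 6 of the genes higher with EPZ-6438 are printed first, because they show how unlike the start sites of these genes are. Each line gives the 250 bases before the RefSeq start site of the gene (GRCh38.p14), read 5′ to 3′ on the strand of the gene, with every CpG dinucleotide in capitals. In 4 of them CpG is rare: TNFSF4, the largest difference, KCNJ13, and the chemokine genes CCL3 and CCL3L3, which lie next to each other on chromosome 17 among the genes of the array.
TNFSF4 (chr1:173205533-173205782, minus strand): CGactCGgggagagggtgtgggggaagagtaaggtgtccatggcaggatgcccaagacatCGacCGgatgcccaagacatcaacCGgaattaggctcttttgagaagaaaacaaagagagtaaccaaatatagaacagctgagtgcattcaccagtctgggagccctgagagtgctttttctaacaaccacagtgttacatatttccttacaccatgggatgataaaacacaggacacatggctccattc
KCNJ13 (chr2:232776566-232776815, minus strand): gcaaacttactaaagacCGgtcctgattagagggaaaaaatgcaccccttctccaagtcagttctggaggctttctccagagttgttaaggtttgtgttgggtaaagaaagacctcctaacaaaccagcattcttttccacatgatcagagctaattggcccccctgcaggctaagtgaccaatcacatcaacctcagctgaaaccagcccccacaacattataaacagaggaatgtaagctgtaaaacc
CCL3 (chr17:36090144-36090393, minus strand): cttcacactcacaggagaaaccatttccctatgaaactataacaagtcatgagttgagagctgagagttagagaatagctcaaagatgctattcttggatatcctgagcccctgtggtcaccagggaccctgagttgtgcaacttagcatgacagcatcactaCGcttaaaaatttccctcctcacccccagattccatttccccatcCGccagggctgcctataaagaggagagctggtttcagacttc
CCL3L3 (chr17:36196759-36197008, minus strand): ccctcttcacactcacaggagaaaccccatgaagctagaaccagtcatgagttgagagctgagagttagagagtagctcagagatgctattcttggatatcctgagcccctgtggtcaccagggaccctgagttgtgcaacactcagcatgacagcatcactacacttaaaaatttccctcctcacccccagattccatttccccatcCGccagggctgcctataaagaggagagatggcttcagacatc
HPGD and GADD45G, higher by nearly the same amount as each other, have CpG-rich start sites.
HPGD (chr4:174522489-174522738, minus strand): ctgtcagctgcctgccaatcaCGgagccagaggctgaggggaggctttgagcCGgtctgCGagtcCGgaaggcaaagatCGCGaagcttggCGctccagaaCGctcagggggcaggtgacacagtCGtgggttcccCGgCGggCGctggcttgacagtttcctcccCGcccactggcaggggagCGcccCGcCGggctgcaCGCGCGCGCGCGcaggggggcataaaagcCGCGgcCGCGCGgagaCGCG
GADD45G (chr9:89604762-89605011, plus strand): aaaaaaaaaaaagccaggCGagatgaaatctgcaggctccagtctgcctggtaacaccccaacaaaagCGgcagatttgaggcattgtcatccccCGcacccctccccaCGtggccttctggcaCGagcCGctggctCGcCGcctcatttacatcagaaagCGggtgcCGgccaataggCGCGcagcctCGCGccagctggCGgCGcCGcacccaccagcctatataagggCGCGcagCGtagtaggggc
The upstream bases hold 5 CpG in TNFSF4, 1 in KCNJ13, 2 in CCL3, 1 in CCL3L3, 29 in HPGD and 20 in GADD45G. The CCL3 and CCL3L3 stretches were identical at 233 of 256 aligned columns (91.0%), and the transcripts are near-identical copies too, so the split of signal between these probe sets is uncertain.

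The background of each array was the 95th percentile of its 612 negative-control probe sets, 7.43 on the EPZ-6438 array and 7.80 on the untreated array. A probe set was counted if it lay above background on at least 1 of these arrays, which left 7763. Of these, 7016 were above on both, 700 on the EPZ-6438 array only and 47 on the untreated array only, and the backgrounds themselves differed by -0.37. Where only 1 array was above, the other was taken at its background level, and such bounded differences are marked "at least" when positive and "or lower" when negative. A bound was given only if the brighter value also exceeded the background of the other array. An EPZ-6438 value between 7.43 and 7.80 with an untreated value below background therefore had no difference, however large the rise. By this rule 444 of the counted probe sets had no difference. The median of the 7319 differences was -0.02 and their SD 0.32. The 2076 positive-control probe sets above background had the same SD of 0.32 with 1% of them below -0.84 and 1% above 0.97, whereas the 63 ERCC spikes had an SD of 0.14 and ran from -0.50 to 0.39. The 612 negative controls, taken at any level, spread most, with an SD of 0.91 and a range from -6.16 to 6.07. Of these, 42 were higher and 71 lower by 1 or more. Among the 14 reference genes the differences lay between -0.24 (SDHA) and 0.22 (PPIA), and ACTB read 13.27 with EPZ-6438 and 13.25 untreated.

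The line was checked against marker genes. All 8 genes of the HTLV-1 infected T cell phenotype were above background on both arrays, with summed log2 levels of 106.6 with EPZ-6438 and 104.6 untreated. IL2RA, the interleukin 2 receptor alpha chain, read 16.58 on both. Of 10 T cell markers only CD247, CD5 and CD4 were above background, and the CD3 chains CD3D, CD3E and CD3G as well as CD2, CD7, LCK and PTPRC were not (summed levels 70.0 and 70.3). None of the 4 myeloid, 3 NK and 3 erythroid markers was above background on either array, with summed levels of 22.4 against 21.2, 13.8 against 13.8 and 16.4 against 16.4. In longer gene lists for these types, 1 of 15 myeloid genes (CST3) and 3 of 16 NK and cytotoxic genes (NKG7, PRF1 and XCL1) were counted. So was GATA1, 1 of 14 erythroid and megakaryocyte genes, on the EPZ-6438 array only. NKG7 read 10.85 with EPZ-6438 and 10.92 untreated, and CST3 9.65 and 9.15. Of the B cell markers on the array, CD79A (7.65 with EPZ-6438, 7.54 untreated) and CD79B (7.58 and 7.40) lay above the lower background of the EPZ-6438 array alone, MS4A1 lay above neither, and the summed level was 19.5 against 19.1. Of the epithelial markers KRT8 alone was above background, at 8.02 and 7.95. The part of these small shifts in the differences below was not tested, and in such bulk RNA fewer cells of a type and less RNA per cell cannot be told apart.

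With EPZ-6438, 32 named probe sets (0.412% of the 7763) were higher by 1 or more and 10 (0.129%) were lower by 1 or more. The higher genes included the costimulatory ligand TNFSF4, the chemokines CCL3 and CCL3L3, the cytokine IL10, the chemokine receptor CCR6, the lymphocyte receptor SLAMF1, the potassium channels KCNJ13 and KCNQ3, and the prostaglandin-degrading enzyme HPGD. The lower genes included the ubiquitin ligase RFFL, the transcription factor SOX11, and LBH. Differences among the higher genes had a median of 1.09, 3 of them exceeded 1.8, and those of the lower genes had a median of -1.06. For 4 of the higher genes (AKAP12, TMX4, ADCY1 and FBXW8) the untreated level was below background and the difference is a lower bound. For comparison, 18 of the 2076 positive-control probe sets above background were higher and 15 lower by 1 or more between the same arrays. Their differences were taken without the bound, and both shares are larger than those of the named probe sets. With the 99th percentile of the negative controls as background the counts were 12 higher and 3 lower, and with neither a filter nor a bound, over all named probe sets, 133 and 62.

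**Figure D1:**
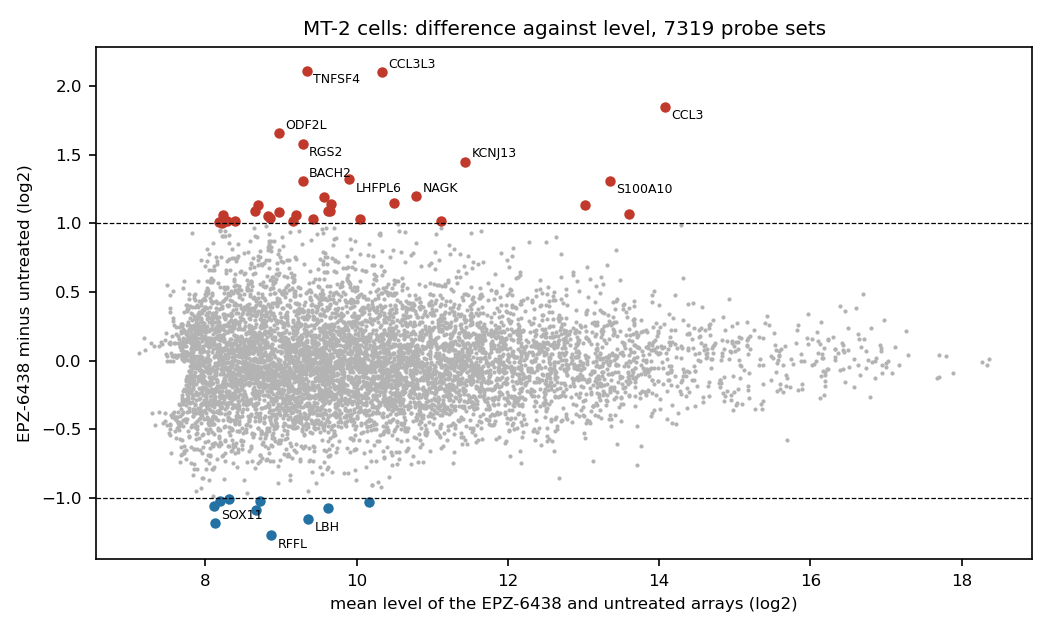
Difference (EPZ-6438 minus untreated, log2) against the mean level of both arrays (log2) for the 7319 named probe sets with a difference, 1 array a side, with dashed lines at 1 and -1. The 32 higher probe sets (red) are found across the range of levels and the 10 lower ones (blue) below a mean level of 11.

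By mean level, 11 of the higher and 7 of the lower probe sets lay between 7 and 9, 15 and 3 between 9 and 11, 2 and 0 between 11 and 13, and 4 and 0 above 13. The SD of all differences was 0.35 in the lowest of these ranges and 0.25 in the highest. The 4 bright genes that were higher, CCL3, S100A10, SERPINA1 and IL10, therefore stood in the range where probe sets in general differed least.

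TNFSF4 encodes OX40 ligand, which costimulates T cells through the receptor OX40 (TNFRSF4). It read 10.40 with EPZ-6438, 12.30 with both agents, 10.03 with OR21 and 8.29 untreated, which put EPZ-6438 above untreated by 2.11 (4.33-fold). Its level was highest where both agents were given, and OR21 without the inhibitor gave a level close to that of the inhibitor alone. The receptor gene TNFRSF4 read 10.90 with EPZ-6438 and 10.53 untreated, a difference of 0.38. Of the other TNF superfamily ligands above background, TNFSF9 differed by 0.41, TNFSF10 by -0.01, CD70 by -0.13 and TNFSF14 by -0.40, so TNFSF4 alone of the 5 differed by 1 or more and the median of the list was -0.01. Among 10 TNF receptor genes with a difference none reached 1, and the largest was that of CD40, a receptor of antigen-presenting cells, at 9.30 with EPZ-6438 and 8.38 untreated (0.92).

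CCL3 encodes macrophage inflammatory protein 1 alpha, a chemokine that attracts leukocytes. Its probe set read 15 with EPZ-6438, 14.70 with both agents, 13.78 with OR21 and 13.15 untreated, a difference of 1.85 (3.6-fold). CCL3L3 read 11.39 with EPZ-6438, 11.81 with both, 10.26 with OR21 and 9.28 untreated, a difference of 2.1 (4.30-fold). Both arrays with the inhibitor lay above both arrays without it for each of these genes. Of 34 chemokines on the array 10 were counted, 2 of them (CCL3 and CCL3L3) were higher by 1 or more and none was lower by as much. CCL5, known as RANTES, read 8.71 with EPZ-6438 and lay below background untreated (at least 0.91), whereas the interferon-induced CXCL10 differed by -0.36 and the bright CXCL13 (13.22 and 13.26) by -0.04.

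Of the 18 chemokine receptors 5 were counted, and their median difference was 0.78. CCR6, the receptor of CCL20, read 9.38 with EPZ-6438, 11.36 with both agents, 9.54 with OR21 and 8.33 untreated, a difference of 1.04. The scavenging receptor ACKR3 read 13.84 and 13.03 (0.81), and CCR4, a surface marker of adult T cell leukaemia cells, 10.44 and 9.66 (0.78). CCR7 and CXCR4, both very bright, differed by 0.24 each. This list is small and its median depended on the background level, being 0.24 with the 99th percentile of the negative controls and 0.23 over all 18 receptors with no filter.

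Of 40 interleukins, interferons and colony-stimulating factors 7 were counted. IL10, a cytokine that restrains inflammation, read 14.14 with EPZ-6438, 14.79 with both, 14.15 with OR21 and 13.07 untreated (1.07), so its EPZ-6438 and OR21 arrays stood at the same level. IL6 differed by 0.52 and IL32 by 0.48, TGFB1 differed by -0.67, and EBI3, IL26 and CSF1 by between -0.05 and 0.09. SLAMF1, a receptor of T and B cells, read 9.20 with EPZ-6438, 10.51 with both, 9.28 with OR21 and 8.11 untreated (1.09). Among the 23 interleukin and cytokine receptors with a difference none reached 1, and they ran from -0.54 (IL18R1) to at least 0.53 (IL23R) around a median of -0.01.

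KCNJ13, the inwardly rectifying potassium channel Kir7.1, read 12.16 with EPZ-6438, 12.24 with both, 10.91 with OR21 and 10.71 untreated, a difference of 1.45. The pair of arrays with the inhibitor and the pair without it were each within 0.2 of one another. KCNQ3, a voltage-gated potassium channel, showed a like arrangement at 9.35 with EPZ-6438, 9.42 with both, 8.01 with OR21 and 8.30 untreated (1.05), and its relative KCNQ5 read 9.89 and 9.24 (0.64). LRRC8D, a subunit of the volume-regulated anion channel, read 10.23 with EPZ-6438, 10.50 with both, 9.16 with OR21 and 9.09 untreated (1.14). NRIP1, a corepressor of nuclear receptors, read 8.90, 9.16, 7.77 and 7.88 in the same order (1.02). In these 4 genes OR21 alone differed from untreated by between -0.28 and 0.20.

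RGS2, which shortens signalling by Gq-coupled receptors, read 10.08 with EPZ-6438, 10.68 with both, 10.27 with OR21 and 8.50 untreated (1.58). DUSP5, a nuclear phosphatase of ERK, read 11.06, 12.09, 11.59 and 9.92 in the same order (1.15), with SPRED2, another ERK pathway inhibitor, at 0.65 and a median of 0.22 over the 19 genes of that list. S100A10, the partner of annexin A2, read 14.01, 15.01, 14.01 and 12.70 (1.31). In RGS2 and DUSP5 OR21 alone stood above EPZ-6438 alone, and in S100A10 at the same rounded level. Of the 12 S100 and annexin genes counted, ANXA8 differed by 0.81, S100A11 by 0.60 and ANXA9 by -0.60, and the median was 0.22.

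The higher group also held enzymes and secreted proteins. HPGD, which inactivates prostaglandin E2, read 10.19 with EPZ-6438, 10.45 with both, 9.47 with OR21 and 9.10 untreated (1.09), while the other 7 eicosanoid genes with a difference lay between -0.45 (PTGER4) and 0.14 (PTGES2). SERPINA1, the protease inhibitor alpha-1 antitrypsin, read 13.58, 15.04, 13.26 and 12.45 in the same order (1.13). NAGK, which phosphorylates N-acetylglucosamine, read 11.39, 12.25, 10.81 and 10.19 (1.2). All 3 had both inhibitor arrays above both others. SERPINE2, a protease inhibitor related to SERPINA1, was higher by 1.19 and MGAT5, an enzyme of N-glycan branching, by 1.08. Of the transcription and stress regulators, BACH2, a repressor that keeps lymphocytes from differentiating, read 9.94, 10.20, 9.12 and 8.63 (1.31), and GADD45G, a stress-response gene, 9.26, 9.58, 8.53 and 8.14 (1.13).

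Of the remaining higher genes, ODF2L read 9.81 with EPZ-6438, 9.63 with both, 9.33 with OR21 and 8.15 untreated (1.66) and LHFPL6 10.56, 10.96, 9.52 and 9.25 (1.32). ANKH, a membrane protein that controls extracellular pyrophosphate, was higher by 1.09, SEL1L3 by 1.06, the kinase scaffold AKAP12 by at least 1.06, the deubiquitinase USP3 and the scaffold protein SDCBP (syntenin) by 1.03 each, the endoplasmic reticulum protein TMX4 by at least 1.02, PARP8 and TRIM43 by 1.02 each, the adenylyl cyclase ADCY1 by at least 1.01 and FBXW8 by at least 1. TRIM43 has near-identical copies and its value is uncertain. Just under the threshold stood CCDC50 (just under 1), the DNA sensor AIM2 (0.99), NOVA1 (0.98), E2F8 (0.97) and HSPA4L (0.97).

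**Figure D2:**
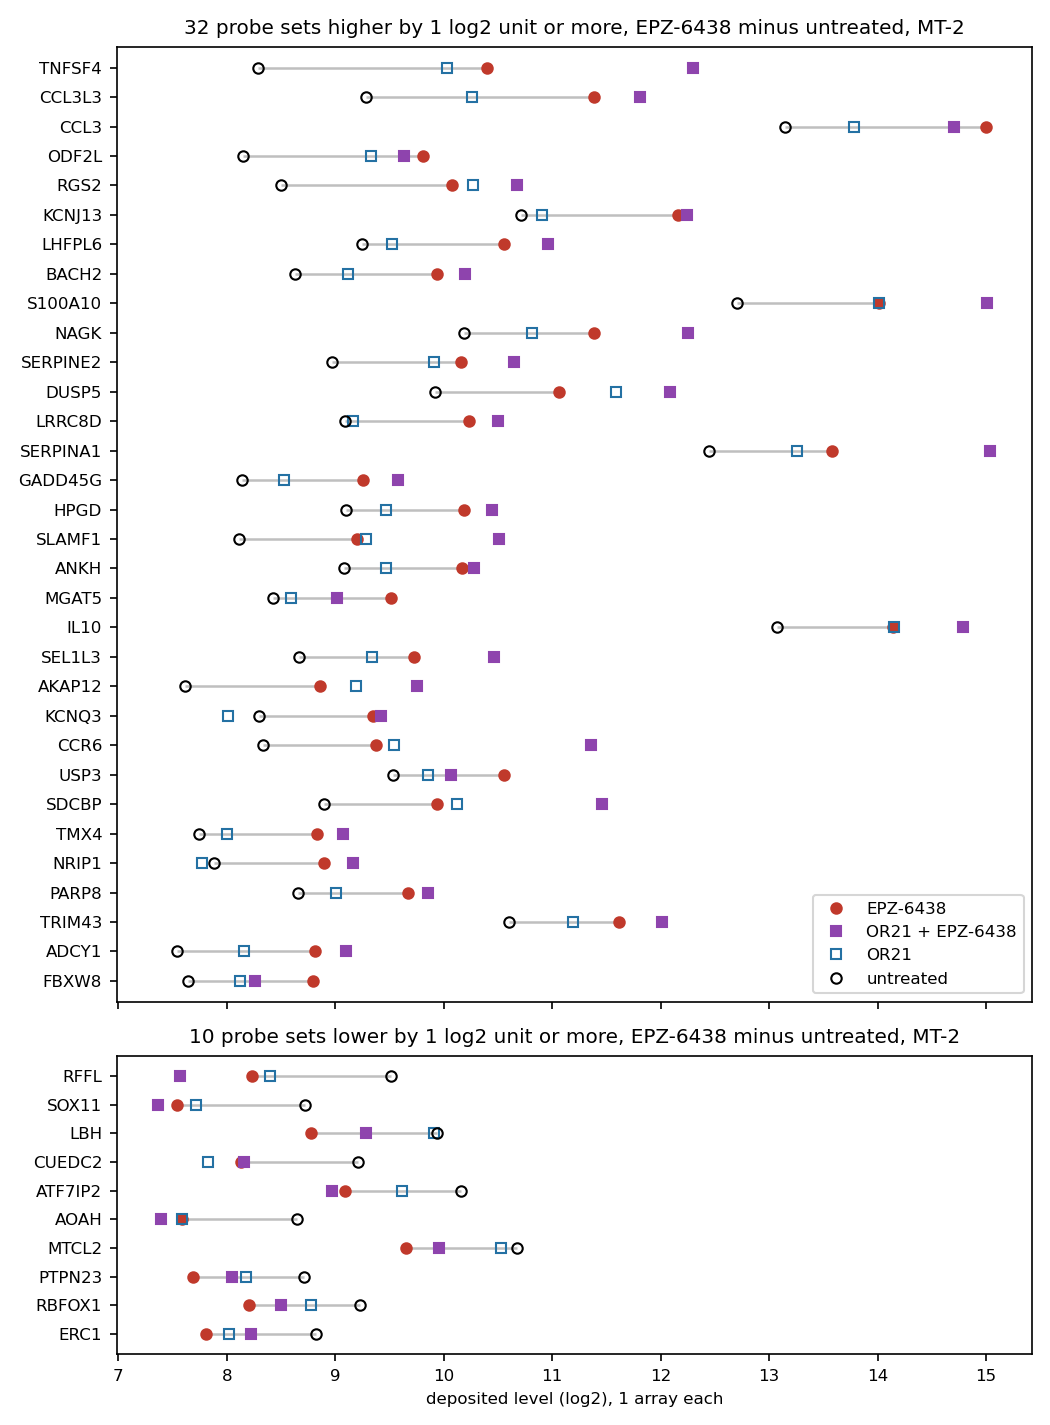
Deposited log2 level of the 32 higher (top) and 10 lower probe sets (bottom) on the 4 MT-2 arrays, with a grey line joining EPZ-6438 and untreated. In KCNJ13, KCNQ3 and LRRC8D the OR21 array sits near untreated, in RGS2, DUSP5 and IL10 at or above EPZ-6438, and the combination lies above EPZ-6438 in 27 of the 32 higher genes.

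The 10 lower genes were all above background on both arrays. RFFL, a ubiquitin ligase, read 8.23 with EPZ-6438, 7.57 with both agents, 8.40 with OR21 and 9.51 untreated, a difference of -1.27. SOX11, a transcription factor of development, read 7.54, 7.37, 7.72 and 8.72 in the same order (-1.18). LBH read 8.78, 9.28, 9.91 and 9.94 (-1.15), with OR21 at the untreated level. Most of the other 7 were dim, and their differences lay between -1.09 and -1.01. They were CUEDC2 (8.13 with EPZ-6438, 9.21 untreated), ATF7IP2 (9.09 and 10.16), the lipopolysaccharide-degrading enzyme AOAH (7.59 and 8.65), the microtubule protein MTCL2 (9.65 and 10.68), the phosphatase-related PTPN23 (7.69 and 8.71), the splicing regulator RBFOX1 (8.21 and 9.23) and ERC1 (7.81 and 8.82). OR21 alone differed from untreated by -1.38 in CUEDC2, -1.06 in AOAH, -0.80 in ERC1 and -0.53 in ATF7IP2 and in PTPN23. In RBFOX1 it differed by -0.44 and in MTCL2 by -0.14. Just outside the threshold stood CMTR1 (-0.98), TBC1D13 (-0.97), AKAP5 (-0.95 or lower), ROR2 (-0.95) and VAV1 (-0.92).

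EPZ-6438 was also present on the combination array, and the combination minus OR21 is a difference for the inhibitor at the same dose and time on arrays that the first comparison did not use. All 32 higher genes were also higher there, where 56.6% of the counted probe sets were above 0. Their difference on this second pair was 0.14 (FBXW8) to 2.27 (TNFSF4) with a median of 1.03, and 17 of the 32 reached 1 or more, against 1.65% of all counted. Of the 10 lower genes 9 had a difference on the second pair and 7 of these were below 0 (38.7% of all counted), with a median of -0.28 and none at -1 or lower (0.258% of all). The shares of all counted are over the 7763 probe sets, including those with no difference on the second pair. CUEDC2 and ERC1 went the other way, by 0.33 and 0.21. In 25 of the 32 higher genes both inhibitor arrays lay above both others (22.0% of all counted, the order of the EPZ-6438 and untreated arrays being fixed by the choice of the genes), and in 8 of the 10 lower genes both lay below (15.2%). These 8 include AOAH, which rounds to 7.59 both with EPZ-6438 and with OR21. The untreated array was the lowest of the 4 MT-2 arrays in 30 of the 32 higher genes (22.4% of all counted) and the highest in 10 of the 10 lower genes (31.9%). As the genes were chosen on this array, its place is in part fixed by that choice. In these genes the OR21 array, which had no inhibitor, also lay on the side of the EPZ-6438 array. Its distance from untreated varied, for example 0.07 in LRRC8D and 1.74 in TNFSF4, and -0.03 in LBH and -1.38 in CUEDC2 among the lower genes. The higher genes in which the groups overlapped were RGS2, DUSP5, SLAMF1, IL10, AKAP12, CCR6 and SDCBP, and in each of them the OR21 array was above the EPZ-6438 array.

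**Figure D3:**
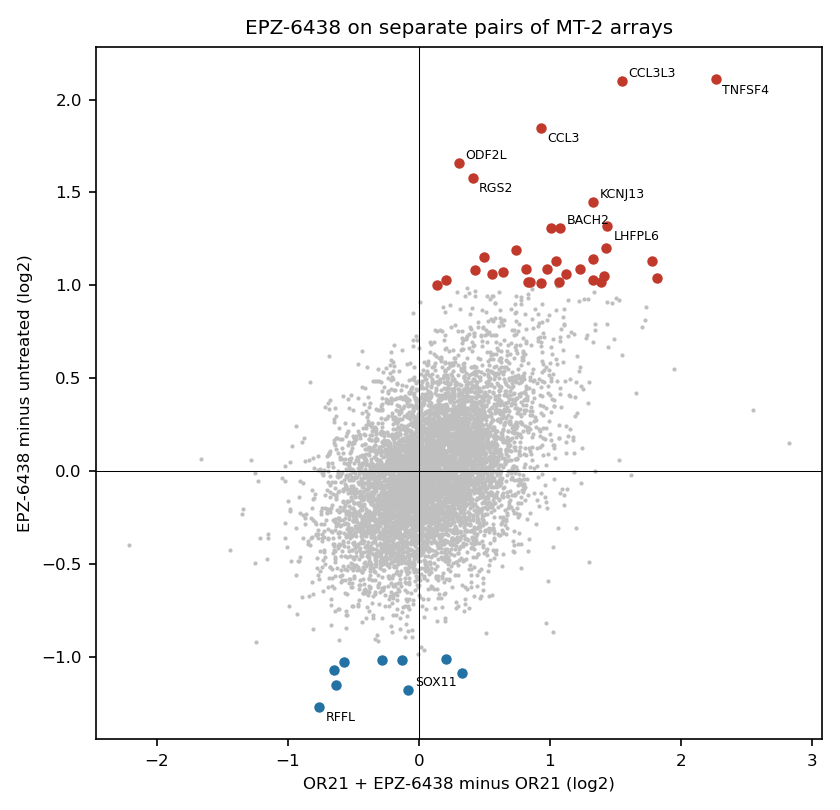
Difference on the pair without OR21 (EPZ-6438 minus untreated, vertical, log2) against the pair with OR21 (combination minus OR21, horizontal, log2) for the 7148 named probe sets with both. The 32 higher probe sets (red) all lie right of 0, and 7 of the 9 lower ones with a value (blue) lie left of it.

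At a smaller threshold the share repeated on the second pair was again larger for the higher probe sets, but so was the share over all counted there. The median difference over all was 0.08 on the second pair and -0.02 on the first. Higher by 0.5 or more were 414 probe sets (5.33%), and 231 of them (55.8%) were also higher by 0.5 or more on the second pair, which is 22.6% of the 1022 that were so there (13.2% of all counted). Lower by 0.5 or more were 370 (4.77%), and 64 of them (17.3%) were so on the second pair, 16% of 399 (5.14% of all counted). Across the 7148 probe sets with both differences Pearson's r was 0.46 and Spearman's rho 0.42. The points are probe sets of the same 4 arrays, normalized together, and are not independent replicates.

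The genes that were higher on both pairs by the largest smaller value were TNFSF4 (2.11 and 2.27), CCL3L3 (2.1 and 1.55), KCNJ13 (1.45 and 1.33), LHFPL6 (1.32 and 1.44), NAGK (1.2 and 1.43), LRRC8D (1.14 and 1.33), SERPINA1 (1.13 and 1.78), SLAMF1 (1.09 and 1.23), BACH2 (1.31 and 1.08) and SEL1L3 (1.06 and 1.12), followed by KCNQ3, GADD45G, CCR6, SDCBP and TMX4. In the other direction VAV1, an exchange factor that relays T cell receptor signals, led with 7.48 with EPZ-6438 and 8.41 untreated (-0.92) and 7.70 with both agents and 8.95 with OR21 (-1.24). The DNA sensor IFI16 read 12.25 and 13.10 (-0.85) on the first pair and 10.98 and 11.79 (-0.81) on the second. PIK3CD, the delta catalytic subunit of phosphoinositide 3-kinase in lymphocytes, read 8.58 and 9.35 (-0.77), then 8.84 and 9.77 (-0.93). After RFFL came the nucleolar protein SURF6 (-0.73 and -0.99), the uracil-DNA glycosylase UNG (-0.68 and -0.89), the ribosome assembly factor UTP18 (-0.72 and -0.67) and TRIM58 (-0.67 and -0.84).

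In MT-1 cells, given 2500 nM, 17 of the 32 higher genes had a difference of EPZ-6438 from untreated, and 13 of these were above 0 (43.5% of the counted probe sets with a difference there) with a median of 0.29. HPGD read 10.04 with EPZ-6438 and 8.90 untreated in MT-1 (1.14), and LHFPL6 8.61 and 7.5 (1.11). These were the only ones of the 17 at 1 or more in MT-1 (0.275% of those with a difference there). The other 15, among them TNFSF4, CCL3, CCL3L3, KCNJ13 and IL10, had no difference by the background rule in MT-1. Of the 10 lower genes 4 had a difference in MT-1 and 2 of these were below 0 (56.5% of all). As the dose was another, the values are given side by side only.

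Among the genes of the Polycomb system itself none of the 24 counted differed by 1 or more, and their median was -0.04. The inhibited enzyme EZH2 read 12.35 with EPZ-6438, 12.06 with both agents, 12.25 with OR21 and 12.36 untreated. Its relative EZH1, close to background, read 8.07 with EPZ-6438 and 8.13 untreated (-0.06), and SUZ12, a core subunit of PRC2, 9.94, 9.59, 9.89 and 10.44 in the order of EZH2 (-0.50). KDM6B, a demethylase of the PRC2 mark, read 10.91 and 10.52 (0.39). The PRC1 members PHC1 (8.72 and 7.81, 0.91), SCMH1 (at least 0.69) and PCGF6 (8.82 and 9.44, -0.62) had the largest differences of the list.

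Of 95 developmental regulators known as Polycomb targets in many cell types only 13 were counted, and 11 had a difference. SOX11 was lower by more than 1 and none was higher by as much, and the median was 0.05. OLIG3 differed by 0.77, MEIS2 by 0.44, GATA4 and FOXF1 by 0.35 each (FOXF1 as a bound), and SIX3 by -0.53. Of 63 WNT, BMP, Notch and Hedgehog genes 14 were counted, with a median of 0.11, and the receptor ROR2 (8.89 with EPZ-6438, 9.83 untreated) stood lowest at -0.95. Of 42 cancer-testis and germline genes 2 were counted, BRDT (0.35) and PRAME (0.18). Most members of these lists were thus not above background on either array, with or without the inhibitor.

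Lists of T cell and leukaemia genes held few differences of 1. Of the 22 T cell identity and receptor signalling genes counted none reached 1 and the median was 0.11, and the largest differences were those of the transcription factor LEF1 (10.77 with EPZ-6438, 9.84 untreated, 0.93), the chromatin organizer SATB1 (11.64 and 10.80, 0.84), the surface protein CD5 (11.44 and 10.64, 0.79) and the repressor BCL6 (13 and 12.40, 0.61). On the second pair these 4 differed by 1.26, 0.99, 1.44 and 0.45. Of the 20 adult T cell leukaemia and HTLV-1 phenotype genes counted none was higher by 1, and the median was 0.10. EPAS1, a hypoxia-inducible factor, differed by 0.89 (1.74 on the second pair) and ZEB1, a repressor of transcription, by 0.87 (0.32). CCR4 differed by 0.78 (0.45 on the second pair) and VAV1 by -0.92 (-1.24). Of 22 counted genes reported silenced in T cell leukaemia 21 had a difference, and DUSP5 alone of these reached 1 (median 0.11). The remaining gene, NRCAM, had no difference by the background rule. It read 7.66 with EPZ-6438, 7.27 with both agents, 6.03 with OR21 and 5.84 untreated. The cell cycle inhibitor gene CDKN2A read 8.96 with EPZ-6438, 9.47 with both, 8.13 with OR21 and 8.17 untreated (0.79). The other cell cycle inhibitors CDKN1B and CDKN1A differed by 0.47 and 0.44, and the 38 replication and mitosis genes with a difference had a median of 0.04.

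The medians of the antigen presentation and interferon lists were between 0.14 and 0.18, beside -0.02 over all differences, with members on both sides of it. The 13 class II genes had a median of 0.14 and none reached 1. RFXAP differed by 0.70 (-0.01 on the second pair) and HLA-DPA1 by 0.63 (0.12). HLA-DRB1 read 10.67 with EPZ-6438 and 9.98 untreated (0.69, and 0.71 on the second pair). HLA-DRA differed by 0.10 (0.51 on the second pair). The transactivator CIITA differed by -0.31 and had no difference on the second pair. HLA-DRB1 and HLA-DRB5 are near-identical copies and their split is uncertain. The class I list had a median of 0.17, with HLA-F at 0.59 (0.20 on the second pair) and TAP2 at -0.51 (-0.18). The interferon-stimulated genes had a median of 0.18, with SP110 at 0.78 (0.49 on the second pair), TRIM22 at 0.60 (0.17) and ISG20 at -0.49 (0.22). The NF-kappaB list had a median of 0.13, with NFKBIE at 0.53 (0.43 on the second pair).

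The lists of metabolism, stress and survival had no member that differed by 1. In the amino acid and unfolded protein stress list DDIT4 differed by 0.94, XBP1 by 0.73, CHAC1 by at least 0.66 and ERN1 by -0.67 (median 0.13). The cholesterol list had a median of 0.04, with the enzyme HMGCS1 at 15.40 with EPZ-6438 and 15.98 untreated (-0.58), and the iron-sulphur and respiratory chain list a median of -0.06, with the cysteine desulphurase NFS1 at -0.79. In the BCL2 family BCL2L1, which protects from apoptosis, read 10.90 and 11.64 (-0.74, but -0.08 on the second pair) and the median was 0.00. The p53 targets had a median of -0.03 and the hypoxia genes the same. Of the DNA methylation genes DNMT3A differed by 0.67 (-0.05 on the second pair) and TET3 by -0.69 (0.35). UHRF1, which guides maintenance methylation, read 11.60 and 12.16 (-0.56, and -0.94 on the second pair). DNMT1 read 10.24 and 10.58 (-0.34, and -0.39 on the second pair). Of the integrin and adhesion genes CD44 differed by 0.69, ITGB1 by 0.60, ITGB8 by -0.59 and CD58 by -0.58 (median 0.11). Their differences on the second pair were 0.93, 0.53, 0.15 and 0.01 in this order.

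The B cell list had 3 members with a difference. CR2, the complement receptor CD21, read 11.37 with EPZ-6438 and 10.70 untreated (0.67), EBF1, a transcription factor of early B cells, 9.36 and 8.84 (0.52), and the kinase BLK 10.34 and 11.09 (-0.75). The median of 0.52 therefore rests on 3 values of unlike sign.

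**Figure D4:**
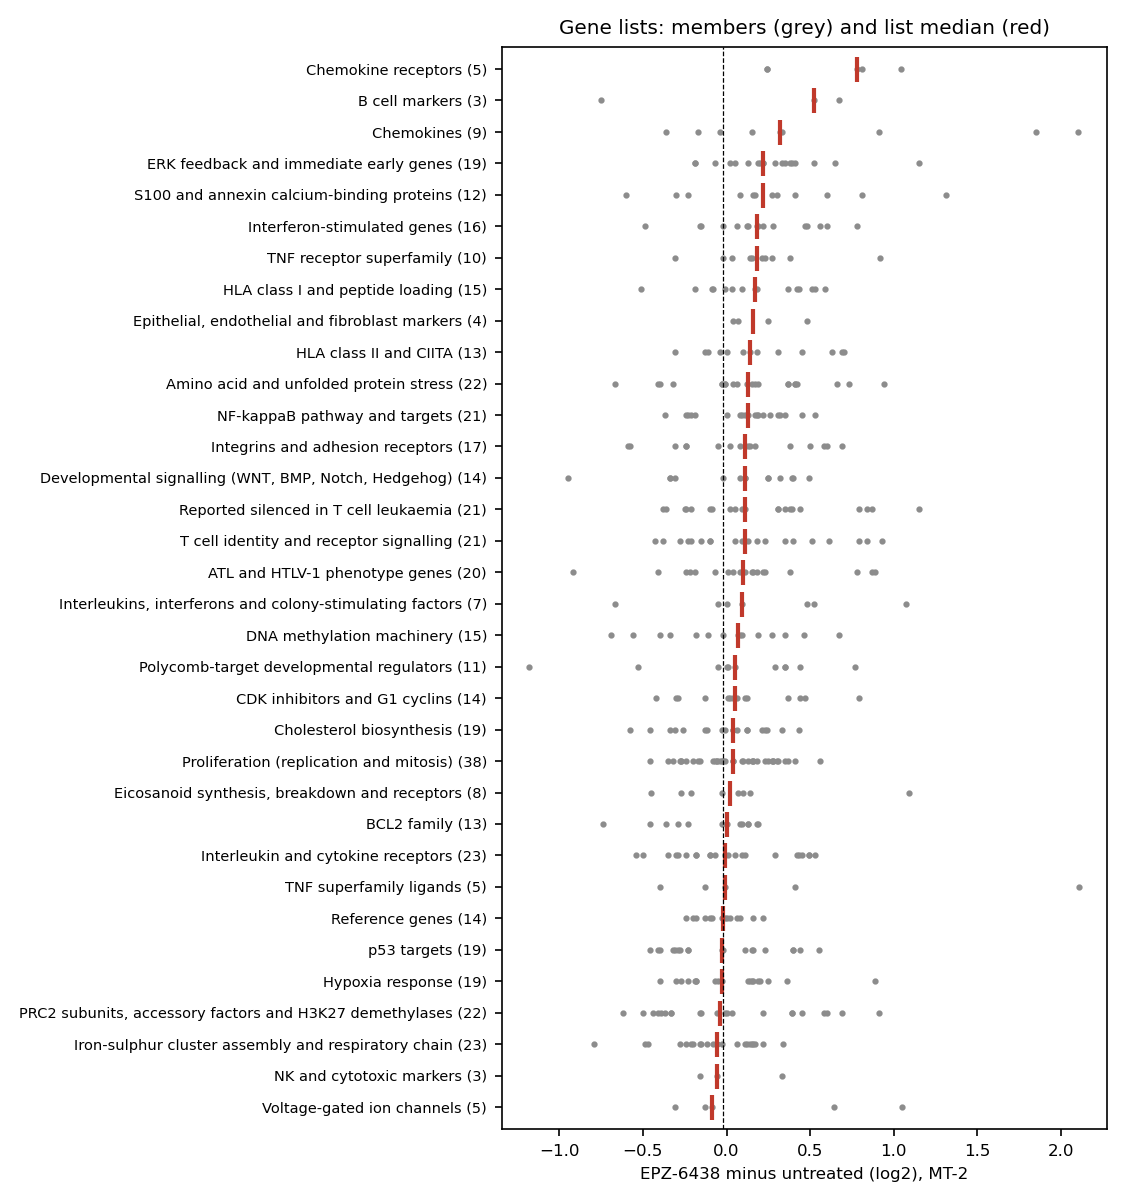
Differences (EPZ-6438 minus untreated, log2) of the members (grey) of each gene list with 3 or more members that had a difference, and the median of each list (red). The dashed line is the median of all 7319 differences, -0.02, and most list medians lie within 0.2 of it while single members such as TNFSF4 and SOX11 stand far out.

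The start sites printed at the opening can be set beside those of all counted genes. In the RefSeq window of 300 bases (250 before and 50 after the start), 27 of the 32 higher genes had a sequence, with a median of 18 CpG, and 16 of these 27 (59.3%) were CpG-dense, defined as a CpG observed over expected ratio of at least 0.6 with at least 50% G and C. Among the 6549 counted probe sets with a sequence the median was 27 CpG and 84.0% were dense. The 8 lower genes with a sequence had a median of 27.5 CpG and 6 of them (75%) were dense. Among the 189 genes with a sequence that were higher by 0.5 or more on both pairs the median was 25 CpG and 74.1% were dense. The lower counterpart had a sequence for only 78.1% of its 64 genes, under the 80% required, so it is void.

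The windows with few CpG belonged to KCNJ13 (1 CpG), CCL3L3, IL10, CCR6 and PARP8 (2 each), CCL3 (3), SLAMF1 (5) and TNFSF4 (6). Those with many belonged to ANKH (50), BACH2 (45), USP3 (38) and HPGD (34). CpG content is a description of the DNA letters and gives nothing on histone marks or DNA methylation in these cells, which were not measured here.

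**Figure D5:**
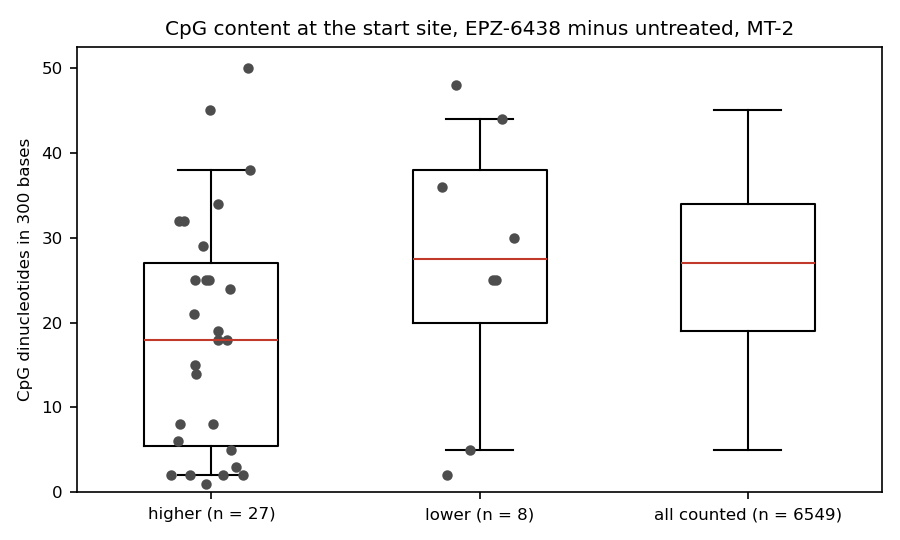
CpG dinucleotides in the 300-base RefSeq window (vertical) for the 27 higher and 8 lower genes with a sequence (points) and all 6549 counted probe sets. Boxes span the quartiles with the median in red, 18 for higher, 27.5 for lower and 27 for all, and whiskers run from the 5th to the 95th percentile.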

How the data were processed

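RNA was measured on 8 Affymetrix arrays of the 1-colour type, of which the EPZ-6438 and untreated MT-2 arrays form the main comparison. The deposited values are log2 levels made by the authors with RMA, which corrects background, normalizes between arrays and summarizes probes, per the submitters' processing notes. For RMA's version, the array build and the annotation release, the sources used here say nothing. No log base is written in the table, and log2 was assumed because RMA gives it. The highest value, 18.91, exceeds the 16 that a 16-bit scanner gives on that scale, so a later rescaling is possible, and every difference rests on the scale as deposited. The labels do not say whether the cultures were separate.

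Of 24351 entries, 2197 positive, 612 negative, 63 ERCC and 31 AFFX controls were set aside, as were 3739 transcript probe sets with no symbol in the platform annotation. The 17709 named probe sets had 17687 distinct symbols. Differences, backgrounds and lists were computed with Python 3.11.15, pandas 2.3.3 and numpy 2.4.6, figures with matplotlib 3.10.9, and quantile and cyclic loess scaling with limma 3.58.1 in R 4.3.3. The computation was tested on simulated data with a shared background and less noise than the real arrays. That checks the arithmetic only and does not measure false calls here. With 1 array a side there is no test and no p.

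Genes named were the 20 highest and 12 lowest, the 15 highest and 8 lowest by the smaller of both MT-2 inhibitor differences, those of opposite sign on the pairs, PRC2 core subunits, markers, and in each of 37 gene lists the members at 1 or more or else up to 4 with the largest difference. Any other gene named was chosen after its values were seen, as were the printed promoters. The members and lists were chosen with earlier results of these data known. Alternatives tried were 3 scalings, other background levels, other filters and other size thresholds.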

Additional observations from a re-analysis of the deposited data

Results flagged for a closer look

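ANKH and ADCY1 differed in sign between the cell lines, though both MT-1 differences of ANKH were smaller than 0.32, the SD of the positive controls in MT-2. ANKH was higher by 1.09 with EPZ-6438 in MT-2 (0.82 when added to OR21), whereas in MT-1 it read 11.99 with EPZ-6438 and 12.14 untreated (-0.15) and differed by -0.29 when the inhibitor was added to OR21. ADCY1 was higher by at least 1.01 in MT-2 (0.93 when added to OR21), whereas in MT-1 it read 10.48 and 11.01 (-0.53) and differed by -1.26 when added to OR21. The doses of the lines also differed, and these differences between lines were not tested.

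Among the 3739 transcript probe sets without a gene symbol, which no comparison above uses, 1170 were above background on at least 1 of the EPZ-6438 and untreated MT-2 arrays. Of these, 3 were higher by 1 or more with EPZ-6438, by up to 2.04, and 4 were lower, by up to -1.11. The 3 higher ones were also above 0 in the combination against OR21.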

How the results depend on the processing

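The counts of 32 higher and 10 lower probe sets depended on the size threshold and on how dim signals were handled. Higher and lower counts were 31 and 10 with median centring, 38 and 12 with quantile normalization and 39 and 6 with cyclic loess. They were 12 and 3 with the 99th percentile of the negative controls as background, 50 and 14 with the 90th, 133 and 62 with no filter and no bound, 106 and 31 with a filter at the table median and no bound, 414 and 370 at a threshold of 0.5, and 5 and 0 at 1.5. With the highest background of the 8 arrays on every array, chosen after seeing the data, they were 32 and 7. The share of higher probe sets also higher on the second MT-2 pair was 100.0% and became 85.0% with no filter and no bound, and that of lower ones was 77.8% and became 100.0% (3 of 3) with the 99th percentile. The other shares stayed within the 95% binomial interval of the reported share. That interval takes the probe sets as independent, which they are not, so it served only as a width for comparison and not as an error. Of 467 values of 61 named genes under the alternatives, 453 stayed within 0.32 of the reported one and 0 turned sign. Of the other 14, 13 came with the 99th percentile. There TNFSF4 was higher by at least 1.09, BACH2 by at least 0.63, CCR6 by at least 0.07 and KCNQ3 by at least 0.04. At that level 27 of the 61 genes stayed within 0.32. The genes beyond these 27 and 13 had no value there and are not among the 467. No scaling moved any of these 61 genes by more than 0.12. Genes named above that are not among the 61 were not followed in this way. Of 288 list medians 9 moved by more than 0.32, in the chemokine receptor, B cell and cancer-testis lists. No paired analysis was possible because each group has 1 array and the differences come from no test. Dim probe sets are limited by background, and all sizes by the single array a side.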
